A study of Mus musculus with 4 samples.

Results

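The genes described here were 9 genes of the complement system: *C1qa*, *C1qb*, *C1qc*, *C3*, *C4b*, *C3ar1*, *C5ar1*, *Itgam* and *Serping1*. They were chosen by symbol, with their levels in the COL group against the NS group already known, and all 9 were listed in each of the 4 libraries, among 40091 genes listed in any library. The measurements were UMI counts (unique molecular identifiers, which count RNA molecules) in single nuclei from the thalamus of mice, by snRNA-seq. The mice were wild type (WT) C57BL6 animals aged 7 to 8 weeks. Animals of the NS group were injected with saline, and those of the COL group with collagenase type IV (Coll IV, 0.01 U per 10 nl), an enzyme that degrades the vessel wall and so causes bleeding, into the VPM and VPL nuclei of the thalamus. Tissue was taken 7 days after the injection, and each library was a pool of 3 mice, with 2 libraries per group, named NS1, NS2, COL1 and COL2 below. The library was the replicate (n = 2 per group), and a two-sided exact permutation test of 2 against 2 libraries gives no p below 0.3333. Pooling removes the spread between mice within a library.

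Complement is a cascade of proteins that tags cells, debris and synapses for removal. In its classical pathway, C1q binds the target, C4 and then C3 are cleaved, and fragments of C3 are read by receptors on phagocytes, while the small fragments C3a and C5a attract and activate myeloid cells through their own receptors. In the brain, microglia are the best known source of C1q, and glial cells can make C3 and C4.

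After filtering, 32291 nuclei remained, 9673 in NS1, 10422 in NS2, 5931 in COL1 and 6265 in COL2, with 68723738 to 77546840 UMIs per library and 8 to 31 barcodes shared between any 2 libraries. Each nucleus was given a cell type from lists of marker genes that held none of the 9 complement genes. Neurons, oligodendrocytes, astrocytes, OPC (oligodendrocyte precursors) and microglia had at least 20 nuclei in every library. Microglia were 3.16% and 3.06% of the nuclei in NS1 and NS2 and 5.04% and 7.06% in COL1 and COL2, a difference of 2.94 percentage points. Macrophages numbered 0 and 6 nuclei in NS1 and NS2 and 154 and 196 in COL1 and COL2. Astrocytes were 12.1% and 9.73% of the nuclei in NS and 2.92% and 4.13% in COL. For each of these 3 types the groups did not overlap (exact permutation p = 0.3333). In microglia the summed level of the microglia markers was 4061 and 3680 CPM (UMIs of the gene scaled to 1000000 UMIs of that cell type and library) in NS and 2211 and 2057 CPM in COL. Clustered without the complement genes, nuclei of NS and COL fell mostly into different clusters within each glial type. The largest oligodendrocyte cluster held 1637 and 2479 nuclei of NS1 and NS2 and 2 and 3 of COL1 and COL2, and the next one 2 and 8 against 1627 and 1557. Microglia lay in a cluster of 319 and 339 NS nuclei and 4 and 5 COL nuclei and in another of 1 and 2 against 295 and 422. The main astrocyte cluster of NS held 1162 and 1049 NS nuclei and 2 and 3 COL nuclei, and OPC lay in clusters of 308 and 318 against 2 and 10 and of 82 and 103 against 206 and 293. The main neuron clusters also differed: the largest held 2663 and 768 nuclei of NS and 5 and 72 of COL, the next 1080 and 2211 against 8 and 44, and the third 90 and 146 against 987 and 1834. Differences between COL and NS within these types therefore compare largely separate clusters. T and NK cells, which should lack nearly all of these genes, numbered 45 in COL1 and 64 in COL2 and served as a reference for RNA released from other cells.

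The 3 genes of C1q lie side by side on chromosome 4, all on the minus strand (build GRCm38). *C1qb* spans chr4:136880129-136886187, *C1qc* spans chr4:136889804-136893065 and *C1qa* spans chr4:136895917-136898803, so that all 3 fit within 18675 bp. *C3* (chr17:57203970-57228136) and *C4b* (chr17:34728380-34743882) lie far apart on chromosome 17. The receptor genes are *C3ar1* (chr6:122847138-122856161), *C5ar1* (chr7:16246743-16259540) and *Itgam* (chr7:128062640-128118491), and *Serping1* spans chr2:84765387-84775444. RefSeq promoter sequences (GRCm38.p6, 250 bases before to 50 after the start) matched 6 of the 9 genes; *C1qa*, *C4b* and *Serping1* had no entry. The letters GAGGAA or, on the other strand, TTCCTC, the core bound by PU.1, a transcription factor of myeloid cells, were in 3 of the 6 promoters and in 28.3% of all 32851 promoters. The 3 promoters with a match are shown to place these letters, with the matching letters in capitals, on the gene's own strand.
C1qb promoter, chr4:136886151-136886450, minus strand: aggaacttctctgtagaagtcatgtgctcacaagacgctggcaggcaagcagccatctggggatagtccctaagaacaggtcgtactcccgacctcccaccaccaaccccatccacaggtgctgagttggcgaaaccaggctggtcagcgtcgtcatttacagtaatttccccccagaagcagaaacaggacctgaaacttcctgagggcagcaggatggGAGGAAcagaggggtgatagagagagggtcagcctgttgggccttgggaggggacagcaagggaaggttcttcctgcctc
C1qc promoter, chr4:136892865-136893164, minus strand: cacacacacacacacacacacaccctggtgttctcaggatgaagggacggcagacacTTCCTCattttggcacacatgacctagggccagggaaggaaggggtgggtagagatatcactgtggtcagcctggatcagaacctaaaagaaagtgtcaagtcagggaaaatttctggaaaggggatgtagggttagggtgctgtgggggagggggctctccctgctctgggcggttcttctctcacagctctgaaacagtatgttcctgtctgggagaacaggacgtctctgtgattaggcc
Itgam promoter, chr7:128062390-128062689, plus strand: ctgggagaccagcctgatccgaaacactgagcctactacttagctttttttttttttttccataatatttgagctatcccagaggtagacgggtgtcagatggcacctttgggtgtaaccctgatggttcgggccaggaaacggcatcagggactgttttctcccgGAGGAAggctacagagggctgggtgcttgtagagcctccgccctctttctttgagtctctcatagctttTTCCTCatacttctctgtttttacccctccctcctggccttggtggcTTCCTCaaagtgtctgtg
The promoters of *C3ar1* and *C5ar1*, which were also high in microglia and macrophages, and that of *C3* did not hold the letters. A match of 6 letters is a description of the sequence, and the data hold no measurement of binding. The STAT palindrome TTCNNNGAA was in 0 of the 6 promoters and in 8.30% of all promoters. The core of the NF-kB motif, on either strand, was in 3 of the 6 (*C1qb*, *C1qc* and *C3*) and in 20.7% of all promoters, and in *C1qb* its matches on both strands overlapped each other.

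The level of each gene was first described over the sum of all nuclei of a library, whatever their cell type. In such sums, more cells of a type and more RNA per cell cannot be told apart. *C4b*, a precursor of the opsonin C4b, had the widest gap, at 0.916 and 1.251 CPM in NS1 and NS2 and 26.1 and 45.5 CPM in COL1 and COL2. The fitted difference, COL over NS on the log2 scale, was 5.17 ± 0.31 (SE). *C3*, the central component, was counted rarely, with 11 UMIs in each NS library and 65 and 78 in COL1 and COL2 (log2 difference 2.90 ± 0.41). Both NS libraries lay below both COL libraries for these 2 genes.

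The receptors showed the same order. *C3ar1*, the receptor of C3a, stood at 0.761 and 1.06 CPM in NS and 7.74 and 13.7 CPM in COL (log2 difference 3.68 ± 0.34). *C5ar1*, the receptor of C5a, stood at 0.284 and 0.509 CPM in NS and 4.96 and 7.54 CPM in COL (4.11 ± 0.40). *Itgam*, the CD11b chain of complement receptor 3, stood at 1.48 and 1.37 CPM in NS and 8.99 and 11.1 CPM in COL (2.96 ± 0.22). For all 3 receptors the groups did not overlap.

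The C1q chains and the inhibitor behaved otherwise. *C1qa* stood at 9.45 and 17.2 CPM in NS and 14.3 and 32.0 CPM in COL, so that COL1 lay between the NS libraries, and *C1qc*, at 6.71 and 11.8 against 10.8 and 24.6 CPM, overlapped in the same way. *C1qb* stood at 6.32 and 11.7 CPM in NS and 13.2 and 35.9 CPM in COL, with no overlap (log2 difference 1.53 ± 0.46). *Serping1*, which encodes the C1 inhibitor, was the only gene of the 9 with both COL libraries below both NS libraries, at 5.03 and 3.86 against 2.76 and 3.68 CPM (log2 difference -0.32 ± 0.25). In all, 6 of the 9 genes were above NS in both COL libraries, as were 24.1% of the 25570 genes tested over all nuclei, and 1 was below, as were 39%; since the genes were chosen with this contrast known, nothing is read from those counts.

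**Figure D1:**
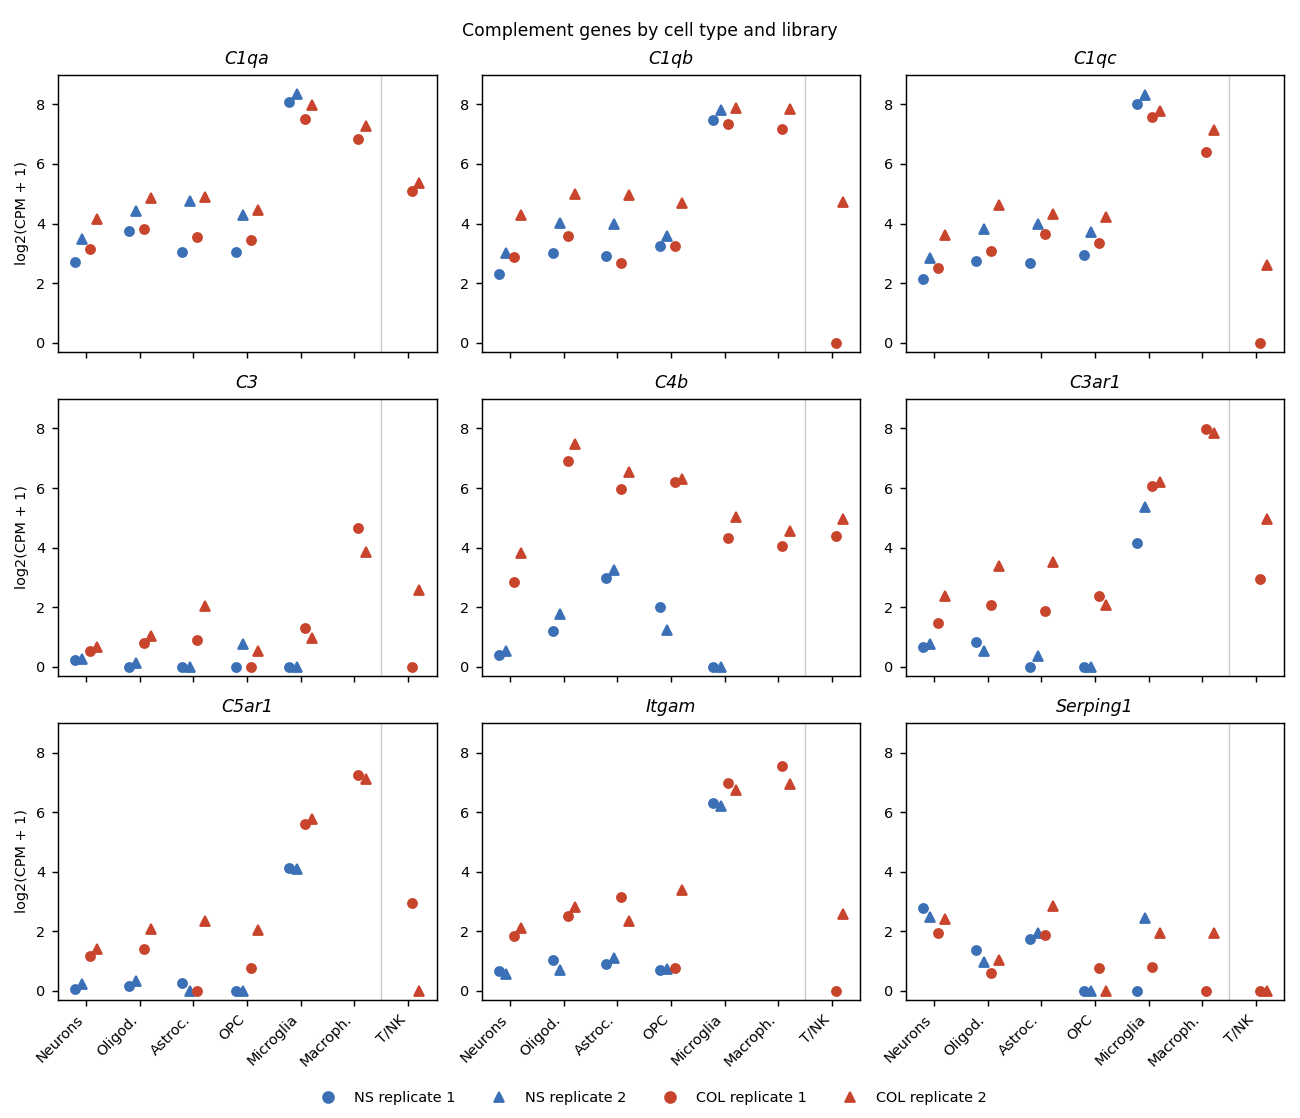
Level of each of the 9 complement genes, as log2(CPM + 1), in 6 cell types and in T and NK cells, with a point per library (blue NS, red COL, circles replicate 1, triangles replicate 2); sums of fewer than 20 nuclei are left out. The 3 C1q genes, *C3ar1*, *C5ar1* and *Itgam* are high in microglia and macrophages, *C4b* is highest in oligodendrocytes of COL, and *Serping1* is low in all types shown, which leave out fibroblasts.

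The cell types differed in which complement genes they held. The sums per library and cell type were fitted together, with the library as a block, and each type was compared with the mean of the other 4 types. In microglia, 6 of the 8 genes that passed the filter on low counts were higher and 1 was lower by the quasi-likelihood test of edgeR, with p-values adjusted after Benjamini and Hochberg, where 27.9% of all 17032 genes tested were higher and 29.1% lower. *Itgam* was higher by 5.06 ± 0.28 (log2, SE; edgeR adjusted p = 2.92e-12) and *C3ar1* by 4.28 ± 0.33 (edgeR adjusted p = 6.79e-10). *C5ar1*, higher by 4.90 ± 0.34, is 1 of the 6 but passed the filter through microglia. Its mean level was 16.4 CPM in NS microglia and 50.2 CPM in COL microglia, and at most 2.44 CPM in the other types. Its calls in this fit therefore support nothing. The C1q chains were higher by 4.39 ± 0.17 for *C1qc*, 3.88 ± 0.15 for *C1qa* and 3.81 ± 0.16 for *C1qb*, with edgeR adjusted p-values of at most 3.93e-14. *C4b* was lower in microglia, with a log2 difference of -1.41 ± 0.40 (edgeR adjusted p = 0.00505), a call that was lost without the library as a block (edgeR adjusted p = 0.523).

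*C4b* was higher in oligodendrocytes than in the other types by 1.85 ± 0.24 (log2; edgeR adjusted p = 1.54e-06) and in astrocytes by 1.51 ± 0.31 (edgeR adjusted p = 0.000399), and it differed by 0.78 ± 0.32 in OPC (edgeR adjusted p = 0.0589). Without the library as a block, the oligodendrocyte and astrocyte calls were lost (edgeR adjusted p = 0.0853 and 0.592). The fit gives 1 difference for NS and COL together, although the order of types differed between the groups. In NS the mean level was 1.88 CPM in oligodendrocytes, 7.69 CPM in astrocytes and 2.21 CPM in OPC. In COL it was 148, 77.4 and 75.9 CPM. *Serping1* was higher in neurons by 2.25 ± 0.31 and in astrocytes by 1.57 ± 0.45, or 1.13 without COL2. It passed the filter on low counts through neurons, so its calls in this fit support nothing. In OPC it had 1 UMI over all 4 libraries, too few for a fold change. In the other types, the C1q chains and the receptors that passed the test were all lower: 7 of the 8 genes were lower and 1 higher in neurons, 4 and 1 in oligodendrocytes, 3 and 2 in astrocytes, and 5 and 0 in OPC, where *Serping1* is among the 5, beside 33.5%, 31.3%, 24.3% and 19.6% of all genes lower and 34.5%, 26.2%, 22.2% and 19.0% higher (68.0%, 57.5%, 46.5% and 38.5% in either direction). The mean of the other types includes microglia, where the C1q chains and the receptors were high. Their lower calls here therefore restate the calls in microglia, and *C5ar1* is 1 of the 7 in neurons. Without the library as a block, the calls in oligodendrocytes numbered 0 in place of 5 and those in astrocytes 1 in place of 5, while over all genes they numbered 6232 in place of 9786 and 5373 in place of 7915.

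**Figure D2:**
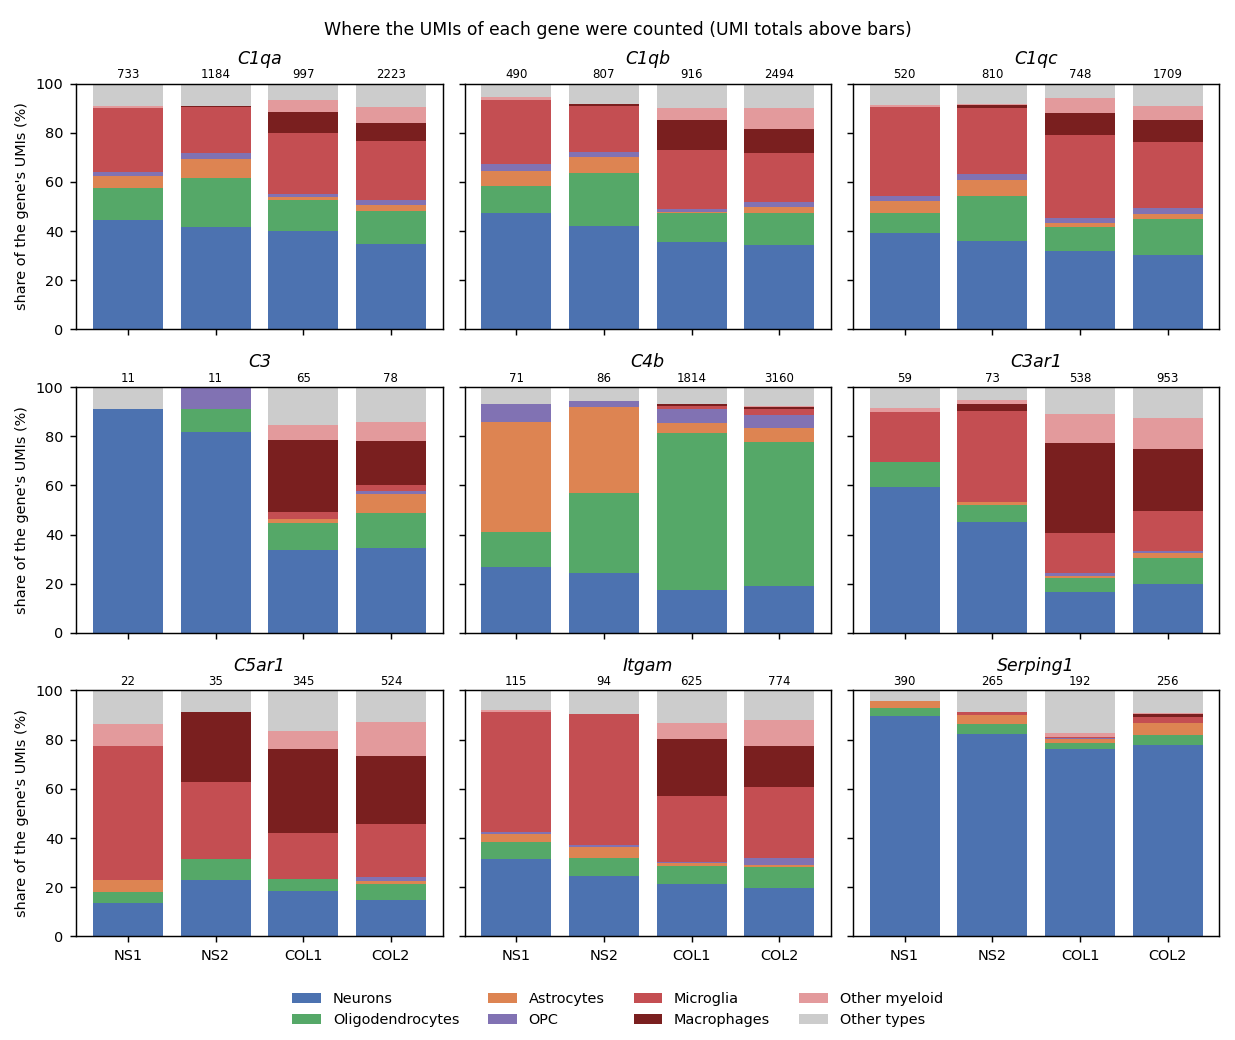
Share of each gene's UMIs, in percent, that were counted in each cell type, with a bar per library and the number of UMIs of the gene above it. Neurons, which held 66.2% to 76.1% of all UMIs, take 30.4% to 47.3% of the C1q UMIs, oligodendrocytes take most of the *C4b* UMIs in COL only, and *Serping1* is counted mostly in neurons.

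C1q is built from the products of *C1qa*, *C1qb* and *C1qc*. In microglia, *C1qa* stood at 268 and 326 CPM in NS1 and NS2 and at 180 and 250 CPM in COL1 and COL2. *C1qc* stood at 259 and 320 CPM in NS and at 188 and 218 CPM in COL. Both COL libraries thus lay below both NS libraries for these chains, with log2 differences of -0.40 ± 0.19 and -0.46 ± 0.17. *C1qb* stood at 177 and 226 CPM in NS and at 162 and 235 CPM in COL, and the groups overlapped (0.04 ± 0.20). Counted per nucleus, the order was the opposite: a microglial nucleus held 0.631 and 0.693 *C1qa* UMIs in NS and 0.819 and 1.201 in COL. The median depth of a microglial nucleus was 2253.5 and 2008 UMIs in NS and 4028 and 4266 UMIs in COL.

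The share of microglial nuclei with a *C1qa* UMI was 42.5% and 45.8% in NS and 51.2% and 60.6% in COL. After each nucleus had been thinned to 1000 UMIs, with at most 2 nuclei left out per library, it was 23.7% and 29.9% in NS and 14.4% and 20.1% in COL, in the direction seen in CPM. In T and NK cells of COL, with median depths of 3170 and 3066.5 UMIs, the unthinned share was 8.89% and 10.9%, and the thinned share was 4.44% and 6.25%. *C1qb* made up 25.2% and 25.9% of the C1q UMIs in microglia of NS, 30.6% and 33.5% in microglia of COL, and 42.2% and 43.6% in macrophages of COL. The share of *C1qc* was 36.8% and 36.7% in microglia of NS and 24.7% and 27.0% in macrophages. In other myeloid nuclei of COL the *C1qb* share was 31.4% and 46.7%. In neurons it was 30.5% and 30.1% in NS and 33.7% and 39.7% in COL, and in oligodendrocytes 27.8% and 31.3% in NS and 35.1% and 37.7% in COL. The groups overlapped in astrocytes, at 33.7% and 26.5% in NS and 19.4% and 38.4% in COL, and in OPC, at 37.8% and 26.2% in NS and 30.8% and 39.3% in COL. These shares are ratios within the same nuclei.

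**Figure D3:**
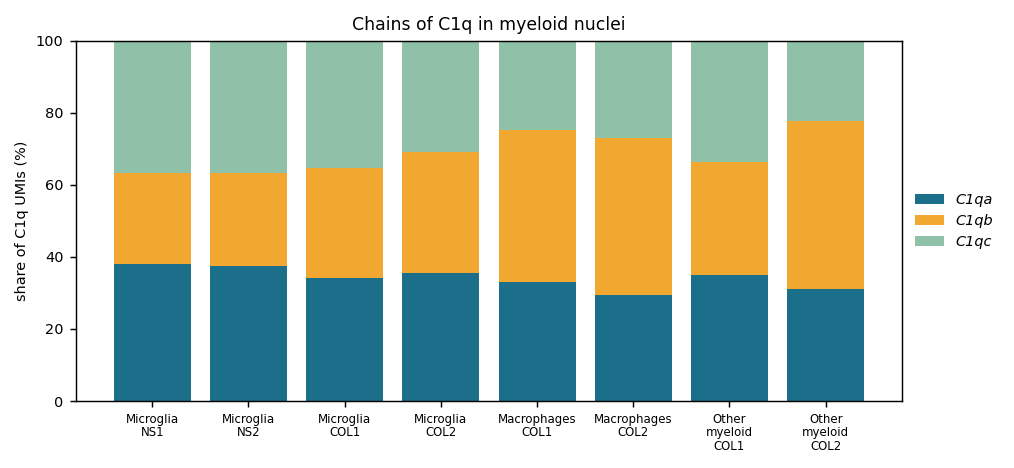
Makeup of the C1q UMIs, in percent, in microglia, macrophages and other myeloid nuclei, with a bar per library that had at least 20 such nuclei. The *C1qb* share (middle) is 25.2% to 25.9% in NS microglia, 30.6% to 33.5% in COL microglia and 42.2% to 43.6% in macrophages, and it is 31.4% and 46.7% in other myeloid nuclei of COL.

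C1q UMIs were also counted outside myeloid nuclei. In neurons *C1qa* stood at 5.52 and 10.3 CPM in NS and 7.78 and 16.9 CPM in COL, with 0.135 UMIs per nucleus in COL1 and 0.279 in COL2. T and NK cells held 0.111 and 0.125 *C1qa* UMIs per nucleus in the same libraries, from 5 and 8 UMIs. In neurons, oligodendrocytes, astrocytes and OPC the groups overlapped for each of the 3 chains, and COL2 was the highest library in each. How much of this was RNA released from microglia and macrophages was not tested.

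*C4b* lay highest outside the myeloid nuclei. In oligodendrocytes, the myelin-forming cells, it stood at 1.31 and 2.45 CPM in NS1 and NS2 and at 120 and 175 CPM in COL1 and COL2, with a log2 difference of 6.28 ± 0.32. These were 10 and 28 UMIs against 1155 and 1847. In COL they made up 63.7% and 58.4% of all *C4b* UMIs of the library, from nuclei that held 13.9% and 15.1% of all UMIs. In NS the same share was 14.1% and 32.6%, and astrocytes held 45.1% and 34.9%.

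The signal was spread over many oligodendrocytes. A *C4b* UMI was found in 0.466% and 0.788% of them in NS, with at most 1 UMI in any nucleus. In COL it was found in 38.0% (exact 95% interval 35.6% to 40.4%) and 47.9% (45.4% to 50.4%), with at most 8 and 15 UMIs in a nucleus, and 60 and 166 nuclei held 4 or more. Thinned to 1000 UMIs, the shares were 0.140% and 0.198% in NS and 11.2% and 14.9% in COL. The tenth of nuclei with the highest counts held 49.0% and 44.7% of the UMIs. In T and NK cells of COL a *C4b* UMI was found in 6.67% (1.40% to 18.3%) and 9.38% (3.52% to 19.3%) of nuclei, and thinned in 0% and 4.69%. The intervals cover counting error only.

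In astrocytes *C4b* stood at 6.90 and 8.49 CPM in NS and at 62.1 and 92.6 CPM in COL (log2 difference 3.42 ± 0.26). In OPC it stood at 3.06 and 1.36 CPM in NS and at 73.4 and 78.3 CPM in COL (5.11 ± 0.34). The groups did not overlap in either type. Among the types with at least 20 nuclei per library, the order of levels in NS was astrocytes, then OPC and oligodendrocytes, whose ranges overlapped, then neurons, and the 2 astrocyte values lay above all others. In COL it was oligodendrocytes above astrocytes and OPC, whose ranges again overlapped, and then microglia and neurons. Fibroblasts, with 10 and 11 nuclei in COL1 and COL2, had 6 and 0 *C4b* UMIs.

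Neurons, microglia and macrophages of COL lay nearer to T and NK cells. Per nucleus, oligodendrocytes held 0.707 and 1.15 *C4b* UMIs in COL1 and COL2, OPC 0.568 and 0.658, and astrocytes 0.405 and 0.691. Neurons held 0.108 and 0.219, microglia 0.087 and 0.154, macrophages 0.078 and 0.122, and T and NK cells 0.067 and 0.094. In microglia, no *C4b* UMI was counted in NS and 94 were counted in COL, which put the pooled COL level at least 12.6-fold higher than the level that 3 counts over the NS group would give, although at 19.1 and 32.0 CPM it lay close to the 20.0 and 30.1 CPM of T and NK cells. In neurons *C4b* stood at 0.322 and 0.437 CPM in NS and at 6.24 and 13.2 CPM in COL (log2 difference 4.81 ± 0.43), below the CPM of T and NK cells. How much of the *C4b* signal in these 3 types was RNA released from other nuclei was not tested.

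In neurons, oligodendrocytes, astrocytes and OPC, 9, 8, 5 and 4 of the 9 genes passed the filter. Of these, 5, 4, 2 and 1 were above NS in both COL libraries, beside 20.0%, 30.3%, 25.8% and 25.7% of all genes tested in the same types, and 1, 0, 0 and 0 were below, beside 39.3%, 37.7%, 36.2% and 34.7%. These counts follow the choice of the genes and are a description. *C3* and *C5ar1* in neurons and *C3ar1* and *C5ar1* in oligodendrocytes passed the filter through COL. So did *Itgam* in oligodendrocytes, *Itgam* in astrocytes and *C4b* in OPC. In NS these had 19, 11, 11, 4, 15, 8 and 7 UMIs, in that order, so their places in the counts support nothing. Genes without enough counts for the filter were *C3* in oligodendrocytes, astrocytes, OPC and microglia, *Serping1* in astrocytes, OPC and microglia, *C3ar1* and *C5ar1* in astrocytes and OPC, and *Itgam* in OPC.

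**Figure D4:**
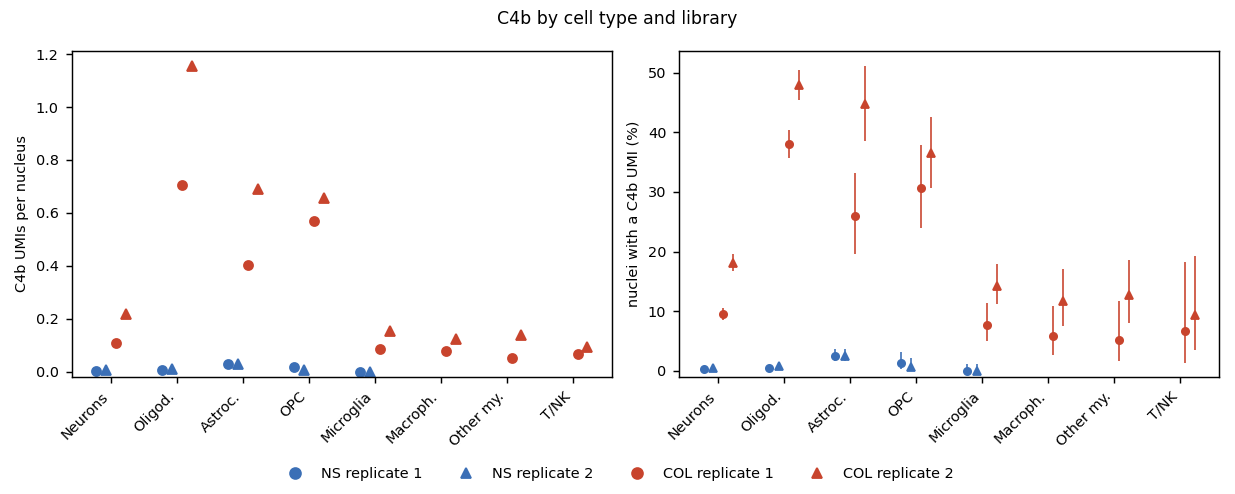
*C4b* UMIs per nucleus (left) and the share of nuclei with a *C4b* UMI, in percent with exact 95% intervals (right), by cell type, with a point per library and sums of fewer than 20 nuclei left out. Oligodendrocytes, astrocytes and OPC of COL lie above the other types, with up to 1.15 UMIs per nucleus, and the NS libraries lie near 0.

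A near copy, *C4a*, lies 65209 bp from *C4b*. Of the windows of 90 bases along the 5379 bases of a *C4b* transcript, 18.9% also occur in a *C4a* transcript, and 20.2% of those in the last 500 bases do. *C4a* itself had 99 UMIs in NS and 114 in COL, and reads that fit both genes could have been dropped or assigned by the counting. Across the 31 sums per library and cell type, the gene whose log2(CPM + 10) was most like that of *C4b* was *Serpina3n*, a serine protease inhibitor made by reactive glia (Pearson r = 0.93), ahead of *Ermard* (0.79) and *Zbtb16* (0.76), among 17032 genes. The sums share libraries and cell types, and no p is attached.

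*C3* had 165 UMIs in all and passed the filter on low counts for COL against NS in neurons and over all nuclei only. In macrophages of COL it had 19 and 14 UMIs, or 24.5 and 13.3 CPM. Microglia of COL had 2 UMIs in each library and microglia of NS had 0. In astrocytes there were 0 and 0 UMIs in NS1 and NS2, against 1 and 6 in COL1 and COL2, in a pooled level of 2.29 CPM in COL. Neurons had 10 and 9 UMIs in NS and 22 and 27 in COL, at 0.169 to 0.587 CPM.

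Among the receptors, microglia of COL lay above microglia of NS. *C5ar1* stood at 16.6 and 16.2 CPM in NS and at 47.1 and 53.2 CPM in COL (log2 difference 1.66 ± 0.32). *C3ar1* stood at 16.6 and 39.8 CPM in NS and at 65.5 and 72.04 CPM in COL (1.35 ± 0.33), and its NS libraries differed from each other more than its COL libraries did. *Itgam* stood at 77.6 and 73.7 CPM in NS and at 124 and 105 CPM in COL (0.65 ± 0.21). The groups did not overlap for any of the 3. In microglia, 7 of the 9 genes passed the filter, among them *C4b*, which did so through COL alone. Of these, 4 were above NS in both COL libraries and 2 below, beside 30.6% and 34.6% of all 11362 genes tested.

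Thinned to 1000 UMIs, the share of microglial nuclei with an *Itgam* UMI was 7.57% and 5.97% in NS and 11.7% and 9.73% in COL, and unthinned it was 16.7% and 14.1% against 41.5% and 36.7%. For *C3ar1* the thinned share was 1.64% and 4.40% in NS and 4.70% and 5.66% in COL, and the unthinned share was 3.92% and 8.46% against 19.1% and 24.2%. Of T and NK cells in COL1 and COL2, 0% and 1.56% had an *Itgam* UMI and 2.22% and 7.81% a *C3ar1* UMI, unthinned. Thinned, the *C3ar1* shares of T and NK cells were 2.22% and 6.25%, so that those of microglia lay no higher than this reference of few nuclei in COL2. By CPM, the mean of *C3ar1* in COL was 68.8 in microglia and 18.4 in T and NK cells, the latter from 7 UMIs.

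All 3 receptor genes were also above NS in neurons and oligodendrocytes of COL, at low levels. In oligodendrocytes, *C3ar1* stood at 0.785 and 0.437 CPM in NS and at 3.21 and 9.499 CPM in COL, and *Itgam* at 1.05 and 0.611 against 4.76 and 6.08 CPM. The summed level of the shared myeloid markers in the same oligodendrocyte sums was 36.7 and 38.3 CPM in NS and 78.7 and 133 CPM in COL, and that of the macrophage markers was 1.57 and 1.22 against 21.01 and 32.9 CPM. The part of this myeloid RNA in the receptor counts of oligodendrocytes was not tested. In astrocytes, *C3ar1* had 1 UMI in NS and 23 in COL and *C5ar1* 1 and 8, and in OPC *C3ar1* had 0 and 13 and *C5ar1* 0 and 8; none of these passed the filter.

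Macrophages and microglia of the COL libraries were compared directly, with the library as a block. The fit holds 4 sums, so its spread is estimated mostly from the other genes. Of 8 genes tested, macrophages were higher for 4 and lower for 2, where 14.2% and 12.2% of all 11570 genes were (26.4% in either direction). *C3* is 1 of the 4, with 19 and 14 UMIs in macrophages and 2 and 2 in microglia of COL1 and COL2, and since it passed the filter through macrophages alone, its call supports nothing. *C3ar1* stood at 254 and 230 CPM in macrophages of COL1 and COL2, which was higher by 1.82 ± 0.15 (log2; edgeR adjusted p = 7.17e-10). *C5ar1*, at 152 and 138 CPM, was higher by 1.53 ± 0.17 (edgeR adjusted p = 1.17e-07).

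*Itgam*, at 186 and 123 CPM in macrophages, was higher by 0.41 ± 0.15 (edgeR adjusted p = 0.0427), but not by DESeq2, for which the adjusted p was 0.702. By edgeR this call was also lost without the filter on low counts (adjusted p = 0.119), without the library block (0.281) and with clusters (0.114). The C1q chains went the other way. *C1qc* was lower in macrophages, with a log2 difference of -0.82 ± 0.16 (edgeR adjusted p = 0.000225), and *C1qa* was lower with -0.67 ± 0.14 (edgeR adjusted p = 0.00071), at 83.8 and 142 CPM and at 112 and 154 CPM. By DESeq2 their adjusted p-values were 0.055 and 0.141. *C1qb* differed by -0.08 ± 0.14 (edgeR adjusted p = 0.751) and *C4b* by -0.40 ± 0.30 (edgeR adjusted p = 0.386). With clusters in place of the marker gate, *C1qb* was also lower in macrophages (-0.37, edgeR adjusted p = 0.0194).

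**Figure D5:**
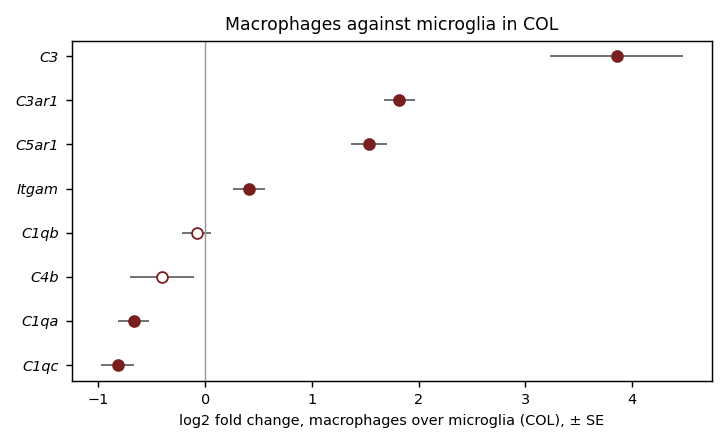
Fitted log2 fold change of macrophages over microglia in the COL libraries, with its standard error, for the 8 complement genes tested; filled points passed the edgeR threshold. *C3*, which was tested through its macrophage counts alone, *C3ar1* and *C5ar1* lie furthest to the right and *C1qc* and *C1qa* to the left of 0.

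*Serping1* was counted mainly in neurons, which held 350 of its 390 UMIs in NS1, 218 of 265 in NS2, 146 of 192 in COL1 and 199 of 256 in COL2. In neurons it stood at 5.93 and 4.54 CPM in NS and at 2.85 and 4.33 CPM in COL, so that both COL libraries lay below, NS2 and COL2 by little (log2 difference -0.39 ± 0.26). Per nucleus the groups overlapped, at 0.067 and 0.048 UMIs in NS and 0.049 and 0.072 in COL. No *Serping1* UMI was counted in the 109 T and NK nuclei of COL. Those nuclei held 348979 UMIs of all genes, too few to tell a level like that of COL neurons from none. The 21 fibroblast nuclei of COL held 27 UMIs, of which 21 came from COL1, and the 13 of NS held 3. Pooled over libraries, these gave 130 CPM in COL and 80.6 CPM in NS, above the level of neurons in either group, but from few nuclei.

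By the pattern over the same 31 sums, *Itgam* was most like *Slc11a1*, *Lat2* and *Adgre1* (r = 0.98 to 0.99), *C3ar1* most like *Alox5ap*, *Ms4a6d* and *Il4ra* (0.98), and *C5ar1* most like *Ifi204*, *B430306N03Rik* and *Rab32* (0.97 to 0.98). *C1qa* was most like *Trem2* (0.97) and *Unc93b1* (0.96), *C1qb* most like *C1qc*, *Ncf1* and *Ctsh* (0.96), and *C1qc* most like *Anxa3*, *C1qb* and *Zfp90* (0.96 to 0.97). *C3* was most like *Emp1*, *Ms4a7*, a macrophage marker of the gate, and *Chil3* (0.95 to 0.97). *Serping1* had no gene above 0.78, the value of *Ttc39aos1*.

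Beyond the 9 genes, 52 other complement genes were read by the test of COL against NS, as a list chosen with earlier results known. Over all nuclei, 40 of the 52 were tested, and by edgeR 6 rose and 2 fell, beside 5.02% and 4.43% of all 25570 genes (9.45% in either direction). The median log2 difference was 0.07 over the list and 0.02 over all genes. *Cd93*, a surface protein of myeloid and endothelial cells, stood at 0.116 and 0.131 CPM in NS and 4.30 and 6.19 CPM in COL. *Itgax*, the CD11c chain of complement receptor 4, had 9 UMIs in NS and 282 in COL. Both are among the 6 but passed the filter through COL alone, so their calls support nothing. *Itgb2*, the partner chain of *Itgam*, rose by 3.07 ± 0.27 (log2; edgeR adjusted p = 0.00319).

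The 2 genes that fell over all nuclei were *Cr2*, a receptor of C3 fragments (-1.94 ± 0.35, edgeR adjusted p = 0.0274), and *Clu*, which encodes the inhibitor clusterin (-1.16 ± 0.21, edgeR adjusted p = 0.0276). Both were higher in astrocytes than in the other types, by 2.04 ± 0.19 for *Cr2* (edgeR adjusted p = 2.21e-08) and 2.08 ± 0.14 for *Clu* (edgeR adjusted p = 6.24e-11), and astrocytes were 12.1% and 9.73% of nuclei in NS against 2.92% and 4.13% in COL. The part of that share in their fall was not tested.

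Within oligodendrocytes, 23 genes of the list were tested, of which 7 rose and 2 fell by edgeR, beside 10.3% and 12.5% of all 17365 genes (22.8% in either direction). *Cd93* had 0 and 1 UMIs in NS and 20 and 46 in COL, and *Itgb2* had 5 and 14 UMIs in NS and 37 and 62 in COL, beside the myeloid markers given above. Both are among the 7 but passed the filter through COL, so their calls support nothing. *Masp1*, a protease of the lectin pathway, stood at 18.6 and 19.0 CPM in NS and 47.8 and 46.9 CPM in COL and rose by 1.40 ± 0.18 (edgeR adjusted p = 0.00354). *Csmd1*, a regulator of complement made by neural cells, rose by 1.43 ± 0.18 (edgeR adjusted p = 0.00354). *Cr2* fell by 2.15 on the log2 scale (SE 0.39, edgeR adjusted p = 0.00895) and *Clu* by 1.52 (SE 0.23, edgeR adjusted p = 0.00557). The summed level of the neuronal markers in the oligodendrocyte sums was 998 and 865 CPM in NS and 1568 and 1286 CPM in COL, and that of the OPC markers was 267 and 212 CPM in NS and 646 and 636 CPM in COL. Their part in the rise of *Csmd1* was not tested.

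In astrocytes, 3 of 17 genes rose and 2 fell by edgeR, beside 8.75% and 10.2% of all 14088 genes (18.9% in either direction). *Csmd1* rose by 1.24 ± 0.17 (edgeR adjusted p = 0.000665), *Susd4*, another inhibitor, by 0.80 ± 0.19 (edgeR adjusted p = 0.0132) and *Csmd3* by 0.68 ± 0.16 (edgeR adjusted p = 0.0115). In the same sums the neuronal markers stood at 928 and 849 CPM in NS and 1499 and 1318 CPM in COL, and the OPC markers at 326 and 366 CPM in NS and 629 and 723 CPM in COL, and their part in these rises was not tested. Without NS2 or COL1 the *Susd4* call was lost (edgeR adjusted p = 0.0728 and 0.0649). *Cr2* fell by 1.70 (SE 0.32, edgeR adjusted p = 0.0041) and *Calr*, which encodes the C1q-binding chaperone calreticulin, by 0.60 (SE 0.20, edgeR adjusted p = 0.0487). The *Calr* call was lost by DESeq2 (adjusted p = 0.188), with the stricter gate (0.0644), with clusters (0.0835) and without NS1 (0.228), NS2 (0.112) or COL1 (0.22). In OPC, 1 of 15 genes rose and 2 fell, beside 7.74% and 9.05% of all 12101 genes (16.8% in either direction). *Cr2* fell by 2.14 (SE 0.56, edgeR adjusted p = 0.0215) and *Clu* by 1.40 (SE 0.21, edgeR adjusted p = 0.00118). The *Cr2* call in OPC was lost by DESeq2 (adjusted p = 0.17) and, by edgeR, without NS2 (0.366) or COL1 (0.0592).

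In microglia, 3 of 14 genes rose and 2 fell by edgeR, beside 13.2% and 13% of all 11362 genes (26.2% in either direction). *Colec12*, a collectin receptor that can start the lectin and alternative pathways, had 0 and 2 UMIs in NS and 32 and 83 in COL, and it is 1 of the 3 although it passed the filter through COL alone, so its call supports nothing. *Csmd1* rose by 1.503 ± 0.16 (edgeR adjusted p = 3.85e-05) and *Csmd2* by 1.04 ± 0.24 (edgeR adjusted p = 0.00646), while in the same sums the neuronal markers stood at 1331 and 1103 CPM in NS and 1901 and 1602 CPM in COL, and the OPC markers at 265 and 224 CPM in NS and 599 and 541 CPM in COL. Their part was not tested, and the *Csmd2* call was lost without NS2 (edgeR adjusted p = 0.0916) and by DESeq2 (0.050027). *Clu* fell by 2.08 (SE 0.26, edgeR adjusted p = 0.000129), and the astrocyte markers in the same sums stood at 385 and 360 CPM in NS and 230 and 227 CPM in COL. In oligodendrocytes, where *Clu* fell as well, these markers stood at 305 and 251 CPM in NS and 311 and 267 CPM in COL. In OPC, where it also fell, they stood at 554 and 538 CPM against 692 and 617 CPM. Their part in the fall of *Clu* was not tested. *Csmd3* fell by 0.87 (SE 0.21, edgeR adjusted p = 0.00707). In neurons 0 of 34 genes passed the edgeR test, while 12 had an unadjusted p under 0.05 and 6 passed with DESeq2. Over all 23929 genes tested in neurons, edgeR called 0.00836%, or 2 genes, 6816 had an unadjusted p under 0.05 and DESeq2 called 2593.

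Between cell types, *Itgb2* was higher in microglia than in the other types by 4.39 ± 0.33 (log2; edgeR adjusted p = 5.03e-10). *C5ar2*, a further C5a receptor, was higher there by 4.84 ± 0.48. It had too few counts for the test of COL against NS in any single cell type. It passed the filter here through microglia, so its call supports nothing. *Colec12* was higher in astrocytes by 3.26 ± 0.21 (edgeR adjusted p = 5.95e-11), *Megf10*, an engulfment receptor that binds C1q, in oligodendrocytes by 2.85 ± 0.11 (edgeR adjusted p = 7.05e-15) and in astrocytes by 2.47 ± 0.12 (edgeR adjusted p = 3.03e-13), and *Csmd1* in OPC by 2.74 ± 0.21 (edgeR adjusted p = 1.66e-09). Of the 20 list genes tested, 14 passed in microglia, 7 in each direction, beside 56.9% of all genes. In macrophages against microglia of COL, 7 of 18 list genes were higher and 3 lower, beside 14.2% and 12.2% of all genes. *Cd93* stood at 178 and 157 CPM in macrophages and at 2.95 and 3.30 CPM in microglia, from 4 and 7 UMIs. It is among the 7 higher genes but passed the filter through macrophages alone, so its call supports nothing. *Cfp*, which encodes properdin, the stabilizer of the alternative pathway, was higher by 2.42 ± 0.30 (edgeR adjusted p = 5.33e-07) and *Itgax* by 2.04 ± 0.45 (edgeR adjusted p = 0.00114; by DESeq2 0.316). Lower in macrophages were *Masp1* (-2.45 ± 0.45, edgeR adjusted p = 0.000135; by DESeq2 0.0841) and *Csmd3* (-2.02 ± 0.12, edgeR adjusted p = 3.48e-12).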

How the data were processed

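Nuclei were isolated from pooled thalamus and sequenced with 10x Genomics 3' chemistry; the submitters' processing notes name Cell Ranger 1.2.0 and the build mm10. The deposited values are raw UMI counts of genes in barcodes, whole numbers that had not been normalized. Whether intronic reads were counted, and any removal of doublets or free RNA, is not given in the sources used here, and none was removed here.

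Of 32332 barcodes, 41 were removed for having 50 genes or fewer, or mitochondrial UMIs of 5% and over. A nucleus took the cell type whose marker list led, with at least 3 markers found, a scaled score of at least 0.25 and the second list at most 0.5 of the first. A score was a list's share of the nucleus's UMIs, scaled to nuclei rich in its markers, minus the library's median in nuclei led by other lists. These thresholds were set after the markers' distributions had been seen. Within a factor of 1.25 of the 0.5 limit lay 1215 of 32291 nuclei. The complement genes and lists were chosen with earlier results of these data known.

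UMIs were summed per library and cell type and tested in edgeR 4.0.16 (TMM, filterByExpr, quasi-likelihood, Benjamini-Hochberg over all genes, threshold 0.05), with R 4.3.3. DESeq2 1.42.0 and Seurat 5.3.0 clusters, built without the complement genes, were alternatives. The scripts were tested on simulated data. The 9 genes carry no p for COL against NS, since they were chosen on that contrast. Of the list of 52 genes, at most 6 called genes with the largest change were named per comparison. Some results for single genes are not reported here. Shares have exact Clopper-Pearson 95% intervals. Likeness was Pearson's r of log2(CPM + 10) over sums of at least 20 nuclei. Gene positions came from the GENCODE annotation of GRCm38. Shares, levels and figures were made in Python 3.11.15 (scipy 1.17.1, matplotlib 3.10.9). Alternatives were DESeq2, no filter, a replicate block, each library left out, clusters, a stricter gate, at least 500 genes per nucleus, no library block and unthinned shares.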

Additional observations from a re-analysis of the deposited data

Results flagged for a closer look

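*Csmd3*, a regulator of complement, differed between COL and NS in opposite directions in astrocytes and microglia. In astrocytes it stood at 366 and 384 CPM in NS1 and NS2 and at 605 and 552 CPM in COL1 and COL2, a log2 difference of 0.68. In microglia it stood at 3582 and 3816 CPM in NS and at 2380 and 1506 CPM in COL, a log2 difference of -0.87. Both COL libraries lay above both NS libraries in astrocytes and below them in microglia, and the difference between the cell types was not tested. In the astrocyte sums the neuronal markers stood at 928 and 849 CPM in NS and 1499 and 1318 CPM in COL. In the microglia sums the microglia markers stood at 4061 and 3680 CPM in NS and 2211 and 2057 CPM in COL. The part of these shifts in the *Csmd3* differences was not tested. Without NS1 the adjusted p-values by edgeR were 0.18 in astrocytes and 0.0924 in microglia, and without NS2 they were 0.0552 and 0.152, so neither result passed the threshold of 0.05 in those fits.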

How the results depend on the processing

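Counts of complement list genes called between COL and NS moved with the settings. By edgeR without the filter on low counts, 8 genes were called in neurons in place of 0, 9 in astrocytes in place of 5, 6 in OPC in place of 3 and 14 over all nuclei in place of 8, while over all genes the calls numbered 4273 in neurons in place of 2, 3364 in place of 2664, 2702 in place of 2032 and 6893 in place of 2416. By DESeq2, 6 were called in neurons (2593 of all genes) and 1 in OPC (783), and 1 in OPC with the stricter gate (1933). With the replicate number as a block, 6 were called in neurons (1251 of all genes), and the counts in the other fits lay within 1.5 times the values reported; the labels give the numbers no shared source, the same-number correlations were 0.0566 to 0.158 over 2 pairs, and the samples share only a number. Leaving out each library in turn gave 0 to 12 in neurons (12 without COL2 and 4 without COL1, with 5580 and 438 of all genes), 3 to 7 in astrocytes (3 without NS2), 2 to 5 in OPC (5 without COL2), 3 to 8 in microglia (3 without NS2, 8 without COL1) and 6 to 13 over all nuclei (13 without COL2). Between cell types, 27 list genes in place of 17 were called in neurons without the filter (14529 in place of 11575 of all genes). For oligodendrocytes, 9 list genes in place of 15 were called without the library block (6232 in place of 9786 of all genes), and 9 to 13 with a library left out (9 without NS2). Of the 9 genes, without the library block 5 were called in neurons in place of 8, 0 in oligodendrocytes in place of 5, 1 in astrocytes in place of 5 and 2 in OPC in place of 5, while all calls numbered 8136 in place of 11575 in neurons, 5373 in place of 7915 in astrocytes and 4020 in place of 6560 in OPC. With a library left out, 2 to 4 were called in oligodendrocytes (3 without NS1, 2 without NS2, 2 without COL1). By DESeq2, 3 of them in place of 6 were called between macrophages and microglia, where no library could be left out. The difference in macrophage share, 2.83 percentage points, was 2.44 with the stricter gate and 6.39 with clusters. Where no construction of the setting shows it, the cause was not tested. Among single tested genes, 1200 comparisons with another setting were counted as unchanged, 145 lost the call and 10 gained it. No called gene changed direction. The unchanged class also takes in settings that gave no adjusted p, and uncalled genes whatever the sign of their difference. With 2 libraries per group, and 45 and 64 T and NK nuclei as the reference for free RNA, the number of libraries and the depth of this reference limit the precision.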
